A study of Homo sapiens with 4 samples.

Results

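LIPA encodes lysosomal acid lipase, and its RNA was 4.09-fold lower after SNRNP40 depletion in LV-M100 breast cancer cells. LIPA was set beside 8 other genes of lysosomal lipid turnover and sterol export, namely NPC1, NPC2, SOAT1, SMPD1, ASAH1, PSAP, GM2A and SCARB2. LIPA was chosen by its fall in these same libraries, so its value is a description and no test of it was made. The other 8 genes were named for their place in the pathway, with earlier results of these data known. The 9 genes were 9 of the 23217 gene symbols in the table, and they held 20 of its 44578 listed transcripts. After SNRNP40 depletion, 6 of the 8 other genes were lower and 2 were higher, with log2 ratios from -0.53 for GM2A to 0.37 for PSAP, against -2.03 for LIPA. Over all expressed genes 50.5% were higher, and nothing is read from the split among the 8.

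LV-M100 is a clonal subpopulation of low cell-to-cell variability, grown as a subclone from MDA-MB-231, an established human triple-negative breast cancer line. The 4 libraries came from LV-M100 cells transfected with siRNAs by Lipofectamine 2000 and collected after 48 h. In the siControl group, replicate 1 received the negative control siRNA NC1 and replicate 2 the BLOCK-iT Fluorescent Oligo, and in the siSNRNP40 group replicate 1 received siSNRNP40 #1 and replicate 2 siSNRNP40 #2. Both groups therefore carried a transfected oligo, and each library of a group carried a different one. SNRNP40 is a component of the U5 small nuclear ribonucleoprotein of the spliceosome, and the comparison asked which transcripts depend on it. All findings concern 1 clone, and no untransfected cells were analysed here.

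The lysosome takes in lipids by endocytosis and by autophagy and breaks them down at acid pH. Lysosomal acid lipase frees cholesterol and fatty acids from the cholesteryl esters and triglycerides of lipoproteins, the soluble protein NPC2 hands the cholesterol to NPC1 in the lysosomal membrane, and cholesterol that leaves can be esterified again by SOAT1 in the endoplasmic reticulum. Sphingolipids are cleaved by separate hydrolases, several of which need a small lipid-binding activator protein, and inherited loss of most of these proteins causes a lysosomal storage disease.

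Values were FPKM, the fragments of a transcript scaled by its length and by the mapped fragments of the library, summed over the listed transcripts of a gene. FPKM is a value per length, so levels of different genes can be set side by side. The table gives 1 value per condition, the authors' mean over 2 libraries, so no value has a replicate error, no p-value was computed and the depth behind each value is unknown. A log2 ratio is that of siSNRNP40 over siControl, with no pseudocount, and was read for the 12334 genes with a mean of at least 1 FPKM over both conditions and a value above 0 in each. Because the RNA is from bulk cultures, fewer cells with an RNA and less of it per cell cannot be told apart. SNRNP40 itself (chr1:31732415-31769644, hg19) had 40.4 FPKM in siControl and 6.12 FPKM in siSNRNP40, a log2 ratio of -2.72. Summed FPKM over all genes came to 516056 in siControl and 517152 in siSNRNP40, and the median log2 ratio was 0.0034. Markers of MDA-MB-231, taken after their values were seen, were present. VIM, CD44, KRT18, KRT8, AXL and CAV1 were all above 100 FPKM in both conditions. Of the 5 markers listed as low or absent, ESR1, PGR and CDH1 were at most 0.098 FPKM, while EPCAM (10.6 FPKM in siControl and 10.0 in siSNRNP40) and ERBB2 (6.56 and 7.42) were not absent.

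LIPA (ENSG00000107798) lies on the minus strand of chromosome 10, at chr10:90973326-91011660 in the table's hg19 coordinates. Its summed level was 24.9 FPKM in siControl and 6.09 FPKM in siSNRNP40, a difference of -75.5% and a log2 ratio of -2.03. In siControl, LIPA stood sixth in level of the 9 genes, and in siSNRNP40 it was the lowest of them. Of the 12334 genes, 0.203% had a larger absolute log2 ratio than LIPA, which was number 6 from the lowest. Among the 8559 genes with a mean of at least 5 FPKM it was number 2 from the lowest, below it only SNRNP40. Over the 6872 genes with a mean of 5 to 50 FPKM, the range that holds LIPA, the 1st and 99th percentiles of the log2 ratio were -0.73 and 0.69. LIPA was chosen for its fall, so its place far outside that range is a description. How much a gene of its level varies between replicate libraries cannot be read from these values.

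**Figure D1:**
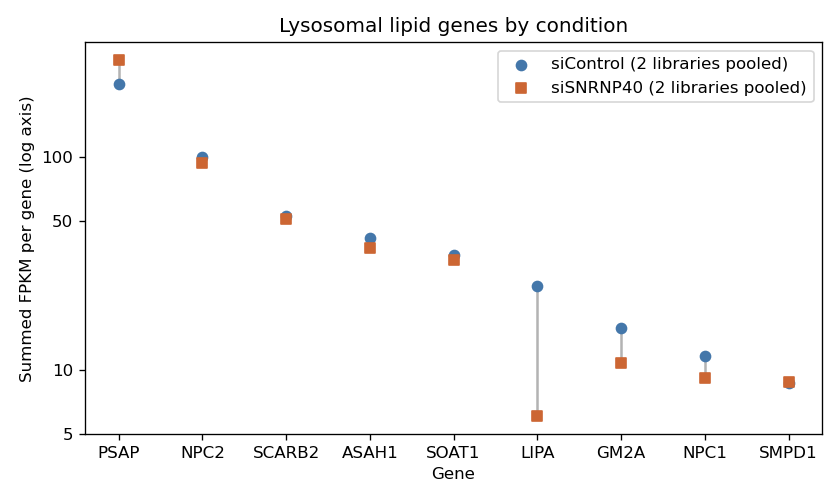
Summed FPKM per gene on a log axis for the 9 genes in order of their siControl level, with a circle for the authors' mean of the 2 siControl libraries, a square for that of the 2 siSNRNP40 libraries and a line joining them; there are no error bars because no library values were used. LIPA goes from 24.9 to 6.09 FPKM, from sixth to last, while the other 8 genes keep their order among themselves.

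The siRNAs and the places where their seed letters occur are shown because each pooled value mixes 2 different siRNAs. In the strands printed by the labels, capitals mark the 7 letters that a complementary guide strand would pair with at its bases 2 to 8. The guide was taken to start opposite the last printed base, which the sources used here do not state.
siSNRNP40 #1: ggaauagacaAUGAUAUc
siSNRNP40 #2: ggauuugaccGACUGAUa
Both occur in full in the coding sequence of SNRNP40, which is on the minus strand of chromosome 1. The site of #1 is in exon 5, with its capitals at chr1:31754225-31754231, and that of #2 is in exon 2, with its capitals at chr1:31766068-31766074. Each line gives the transcript strand in DNA letters, 1 base longer than the siRNA at its left end, with all 18 siRNA bases matched.
SNRNP40 site of #1: tggaatagacaATGATATc
SNRNP40 site of #2: aggatttgaccGACTGATa

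The canonical LIPA transcript (GENCODE release 44 on GRCh37, ENST00000336233) has 10 exons and 2496 bases, of which 1197 are coding. At no place did it match more than 12 of the 18 bases of either strand of either siRNA. It does hold the 7 seed letters of siSNRNP40 #2 for both strands of that duplex, both times in the 3′ UTR in exon 10. The letters for the complementary guide are at chr10:90973871-90973877 and those for the printed strand, used as a guide, at chr10:90974060-90974066, with 10 and 9 of the 18 siRNA bases equal over the whole site. In the next lines capitals mark those 7 letters.
LIPA site, complementary guide of #2: aatgctttgaaGACTGATa
LIPA site, printed strand of #2: caggtgcatagTCAAATCc
LIPA held no seed letters of either strand of siSNRNP40 #1. GM2A, on the plus strand of chromosome 5, also held 2 such places, both in its 3′ UTR in exon 4. The letters for the complementary guide of #2 are at chr5:150647667-150647673, with 13 of 18 bases equal, and those for the printed strand of #1 are at chr5:150647481-150647487, with 12 of 18.
GM2A site, complementary guide of #2: gagacttaaatGACTGATa
GM2A site, printed strand of #1: tttgctcttagTCTATTCc

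Such letters are common. The motifs searched were ATGATAT and TCTATTC for the 2 strands of #1 and GACTGAT and TCAAATC for those of #2, on the transcript strand only and over the whole canonical transcript. They occurred in 20.8%, 14.8%, 16.5% and 19.2% of 10010 protein-coding genes past the level filter, 47.9% held at least 1 of the 4, and 473 genes (4.73%) held both motifs of #2, as LIPA did. Among the 9 genes, 7 held at least 1 motif and there were 9 places in all. SCARB2 held 1 in its 3′ UTR and ASAH1 1 in its 3′ UTR, SMPD1, NPC1 and SOAT1 held 1 each in coding sequence, and NPC2 and PSAP held none. For each motif the genes that held it had a slightly lower median log2 ratio than those that did not, -0.07 against 0.01 for ATGATAT and -0.05 against 0.00 for GACTGAT. They also had longer transcripts, with medians of 5105 against 3031 bases and 5112 against 3136 bases, which was not taken into account. A match of 7 letters is a description and not a site of action, and whether any of these siRNAs acted on LIPA or GM2A directly was not tested. Because the values pool both siRNAs, a difference seen with 1 of them and a difference seen with both cannot be told apart.

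NPC1 and NPC2 carry out the export of the cholesterol that lysosomal acid lipase frees. NPC1, the sterol transporter of the lysosomal membrane (chr18:21083462-21166581), had 11.6 FPKM in siControl and 9.16 FPKM in siSNRNP40, a log2 ratio of -0.34 and a difference of -21.2%. NPC2, the soluble cholesterol carrier of the lysosomal lumen (chr14:74946643-74960084), had 99.3 FPKM in siControl and 93.7 FPKM in siSNRNP40, a log2 ratio of -0.08. NPC2 was thus among the genes with small differences, and 72.9% of all genes had a larger absolute log2 ratio, against 20.9% for NPC1. The level of NPC2 was 8.55 times that of NPC1 in siControl and 10.2 times in siSNRNP40.

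SOAT1, the sterol O-acyltransferase that makes cholesteryl esters from free cholesterol and so runs opposite to lysosomal acid lipase, had 34.7 FPKM in siControl and 32.7 FPKM in siSNRNP40 (chr1:179262849-179327814). Its log2 ratio was -0.08. The ratio of LIPA to SOAT1, the hydrolase to the esterifying enzyme, was 0.718 in siControl and 0.186 in siSNRNP40, while the SOAT1 level itself differed by -5.71%.

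SMPD1 and ASAH1 encode hydrolases of the sphingolipid branch. SMPD1, acid sphingomyelinase, which splits sphingomyelin into ceramide and phosphocholine, had the lowest siControl level of the 9 genes, at 8.68 FPKM, and 8.73 FPKM in siSNRNP40 (chr11:6411644-6416228). Its log2 ratio of 0.01 was the smallest of the 9, and 97.1% of all genes had a larger one in absolute value. ASAH1, acid ceramidase, which cleaves the ceramide further to sphingosine and a fatty acid, had 41.6 FPKM in siControl and 37.5 FPKM in siSNRNP40, a log2 ratio of -0.15, and lies on chromosome 8. The 2 enzymes are consecutive in the pathway, and neither came near the size of the LIPA difference.

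PSAP and GM2A encode the activator proteins, and they differed in opposite directions. PSAP, the precursor of the saposins that present sphingolipids to their hydrolases (chr10:73576055-73611082), was the most abundant of the 9 genes, with 219.7 FPKM in siControl and 284.0 FPKM in siSNRNP40. It was 29.3% higher, with a log2 ratio of 0.37, at percentile 90.6 of all genes. GM2A, the activator that lifts the ganglioside GM2 out of the membrane for β-hexosaminidase A (chr5:150632613-150649953), had 15.6 FPKM in siControl and 10.8 FPKM in siSNRNP40. The difference was -30.8%, a log2 ratio of -0.53, at percentile 4.28. After LIPA this was the largest difference of the 9 genes, and 8.95% of all genes had a larger one in absolute value. PSAP stood at 14.04 times the level of GM2A in siControl and at 26.2 times in siSNRNP40.

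SCARB2, also called LIMP-2, is a lysosomal membrane protein that carries β-glucocerebrosidase to the lysosome. It had 52.8 FPKM in siControl and 51.2 FPKM in siSNRNP40 (chr4:77079892-77135052), a log2 ratio of -0.05. SCARB2, NPC2, SOAT1, SMPD1 and ASAH1 were the 5 genes with an absolute log2 ratio under 0.2, near the median absolute log2 ratio of 0.17 over all genes or below it.

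In siControl the order of levels ran from PSAP through NPC2, SCARB2, ASAH1, SOAT1, LIPA, GM2A and NPC1 to SMPD1. The order in siSNRNP40 was the same except that LIPA came last, after SMPD1. Neighbours in this order such as ASAH1 and SOAT1, or NPC1 and SMPD1, are close in level, and whether they differ beyond the spread between libraries cannot be read from pooled values. The 9 genes together summed to 508.9 FPKM in siControl and to 533.9 FPKM in siSNRNP40, a sum ruled by PSAP and NPC2.

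All 9 genes passed the filter of a mean of at least 1 FPKM, and 1 of the 9, LIPA, was past an absolute log2 ratio of 1. Over all genes 1.47% (181 of 12334) were past that limit, 0.657% lower (81 genes) and 0.811% higher (100 genes). Since LIPA was chosen for this value, nothing is read from the count. The other 8 genes had a median log2 ratio of -0.08, against 0.0034 over all genes, and 50.5% of all genes were above 0.

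**Figure D2:**
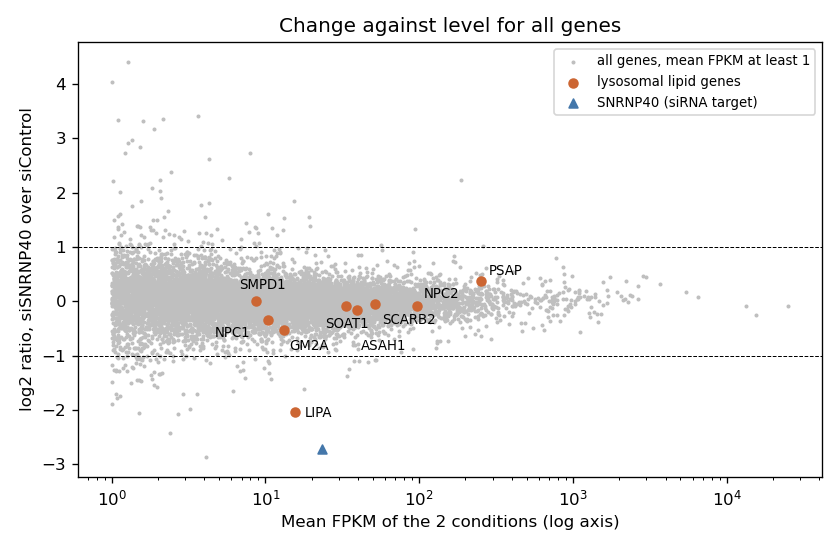
Log2 ratio of siSNRNP40 over siControl against the mean FPKM of both conditions on a log axis, for each gene with a mean of at least 1 FPKM in grey, the 9 genes as orange circles, SNRNP40 as a blue triangle, and dashed lines at log2 ratios of 1 and -1. LIPA at -2.03 stands with SNRNP40 at -2.72 below all other genes with a mean of at least 5 FPKM, while the other 8 genes lie inside the grey cloud between -0.53 and 0.37.

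At the level of listed transcripts, the LIPA difference was in its main transcript. This transcript, which gave 95.8% of the LIPA value in siControl, had 23.8 FPKM in siControl and 6.09 FPKM in siSNRNP40, a log2 ratio of -1.97. The other LIPA transcript had 1.05 FPKM in siControl and was listed at 0 in siSNRNP40. The share of the main transcript therefore stood at 100% after depletion, and no listed LIPA transcript was higher.

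GM2A was lower in both of its transcripts to a like degree. The first had 8.17 FPKM in siControl and 5.55 FPKM in siSNRNP40, and the second 7.48 FPKM and 5.28 FPKM. Their log2 ratios were -0.56 and -0.50, and the share of the first was 52.2% of the gene in siControl and 51.3% in siSNRNP40.

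PSAP and ASAH1 shifted towards their minor transcripts. The main PSAP transcript had 208.9 FPKM in siControl and 258.0 FPKM in siSNRNP40, a log2 ratio of 0.30. Its second transcript had 8.47 FPKM and 21.0 FPKM, a log2 ratio of 1.31, and the third 2.34 FPKM and 5.08 FPKM, a log2 ratio of 1.12. The main transcript still gave 95.1% of PSAP in siControl and 90.8% in siSNRNP40.

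For ASAH1 the main transcript was lower and the second higher, so that the gene sum hid part of the difference. The main ASAH1 transcript had 38.4 FPKM in siControl and 30.0 FPKM in siSNRNP40, a log2 ratio of -0.36. The second had 3.13 FPKM and 6.86 FPKM, a log2 ratio of 1.13, and the third 0.090 FPKM and 0.664 FPKM. The share of the main transcript was 92.3% in siControl and 79.9% in siSNRNP40.

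The other genes had in effect 1 expressed transcript each. NPC1 and NPC2 have 1 listed transcript, the second transcripts of SMPD1 and SCARB2 were listed at 0 in both conditions, and the main SOAT1 transcript gave 98.3% of its gene in siControl and 99.5% in siSNRNP40. Of the 20 transcripts, 13 had a mean of at least 1 FPKM, and 4 of those were past an absolute log2 ratio of 1, the main one of LIPA, lower and belonging to the gene chosen for its fall, and 3 minor ones, 1 of ASAH1 and 2 of PSAP, all higher. Over all listed transcripts with the same filter and a value above 0 in both conditions, 10.5% (1760 of 16691) were past that limit, 5.04% lower and 5.5% higher, so that such ratios are more common for transcripts than for gene sums. Nothing particular to these genes is read from the count. Transcript values of a gene share fragments that the authors' software divides by a model, so shifts between transcripts depend on that division as well as on the RNA.

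**Figure D3:**
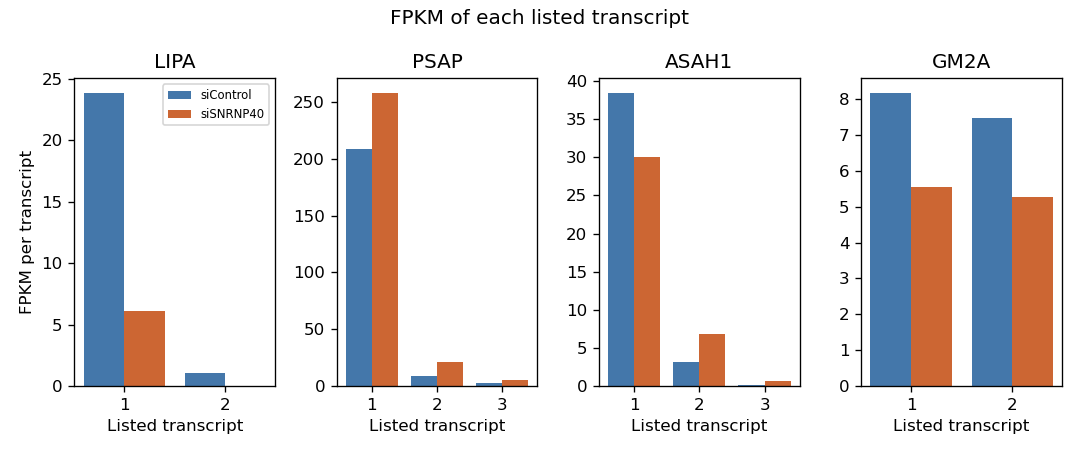
FPKM of each listed transcript of LIPA, PSAP, ASAH1 and GM2A, ordered within a gene by level, with blue bars for siControl and orange bars for siSNRNP40, each the authors' mean of 2 libraries, and with a separate axis from 0 for each gene. The main LIPA bar goes from 23.8 to 6.09 FPKM, both GM2A bars are lower, and the minor bars of PSAP and ASAH1 are higher after depletion.

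Genes that do related work were set beside LIPA, which was chosen for its fall, so their smaller differences are a description. Of 20 further lipid hydrolases and their cofactors, most of them lysosomal, 17 passed the filter. None of these was past a log2 ratio of 1 in either direction, against 1.47% of all genes. At that share nothing is read from a list with none past the limit, here or below. In this list 6 genes were below 0 and 11 above, with a median of 0.11, and 50.5% of all genes were above 0. The lowest were SMPDL3A, GALC and NAAA. SMPDL3A, a relative of acid sphingomyelinase, had 4.90 FPKM in siControl and 2.62 FPKM in siSNRNP40 (log2 ratio -0.90). This was below the 1st percentile of -0.88 over all genes past the filter. GALC, the galactocerebrosidase, was at -0.37, and NAAA, the acid amidase of N-acylethanolamines, was at -0.32. Among the higher were PPT1, which removes palmitate from proteins, with 48.9 FPKM and 64.4 FPKM (0.40), and ARSA, the sulphatase of sulphatides (0.24). The hydrolases as a list were therefore on both sides of 0, and LIPA was well below the lowest of them.

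The other members of the acid lipase family on chromosome 10 were at or near 0 in these cells. LIPF and LIPM were at most 0.044 FPKM in siControl and listed at 0 in siSNRNP40, and LIPJ, LIPK and LIPN were listed at 0 in both conditions. LIPA was thus the only one of the 6 genes past the filter.

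Among 21 genes of the lysosomal membrane, of sterol transfer from it and of sterol export, 19 passed the filter, with 9 below 0 and 10 above and a median of 0.08, and none was past the limit. ABCA1, the transporter that loads cellular cholesterol onto apolipoproteins, was the lowest, with 8.34 FPKM in siControl and 5.48 FPKM in siSNRNP40 (-0.61). OSBPL8, a lipid transfer protein of the endoplasmic reticulum, was next, with 58.0 FPKM and 39.5 FPKM (-0.55). Then came ANO6 (-0.28), counted in this list although it encodes a phospholipid scramblase of the plasma membrane. The highest were MCOLN1, the calcium channel of the lysosomal membrane (0.48), SPNS1, a lysosomal lysophospholipid transporter (0.45), and GRAMD1C, a sterol carrier at membrane contacts (0.32). The main structural proteins of the lysosomal membrane, LAMP1 and LAMP2, had log2 ratios of 0.08 and 0.22.

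Genes of cholesteryl ester, oxysterol and lipid droplet metabolism were mixed, with 11 of 15 past the filter, 5 below 0 and 6 above and a median of 0.04. NCEH1, the neutral cholesteryl ester hydrolase, works outside the lysosome on the same kind of ester as lysosomal acid lipase. It had 37.4 FPKM in siControl and 20.05 FPKM in siSNRNP40, a log2 ratio of -0.90. This was below the 1st percentile of -0.73 over genes with a mean of 5 to 50 FPKM. PLIN3 was also lower (-0.37), and PLIN2, a coat protein of lipid droplets, was slightly higher (0.16), as was CYP27A1, the sterol 27-hydroxylase (0.16). ACAT2 (-0.36) is counted in this list, but it encodes a cytosolic acetyl-CoA acetyltransferase of early sterol synthesis and not an esterifying enzyme. CH25H, which makes 25-hydroxycholesterol, had 0.622 FPKM in siControl and 1.60 FPKM in siSNRNP40 (1.36). It was the gene of this list past the limit, but it was under 1 FPKM in siControl and passed the filter through its siSNRNP40 value, so its place in that count is tied to the filter.

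The list that was nearly all on one side was that of sterol synthesis and its control. In it 19 of the 20 genes past the filter were below 0, with a median of -0.40, while 50.5% of all genes were above 0. This list was drawn up with earlier results of these data known, so the count is a description and was not tested. IDI1, the isopentenyl diphosphate isomerase, was past the limit, with 63.6 FPKM in siControl and 29.4 FPKM in siSNRNP40 (-1.11). MVK (-0.64) and FDFT1 (-0.61) followed, and SCAP, the escort protein of the sterol-sensing complex, was the gene above 0 (0.09). Over all genes the 5th percentile of the log2 ratio was -0.50, so most of these genes were low but within the range of the rest.

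**Figure D4:**
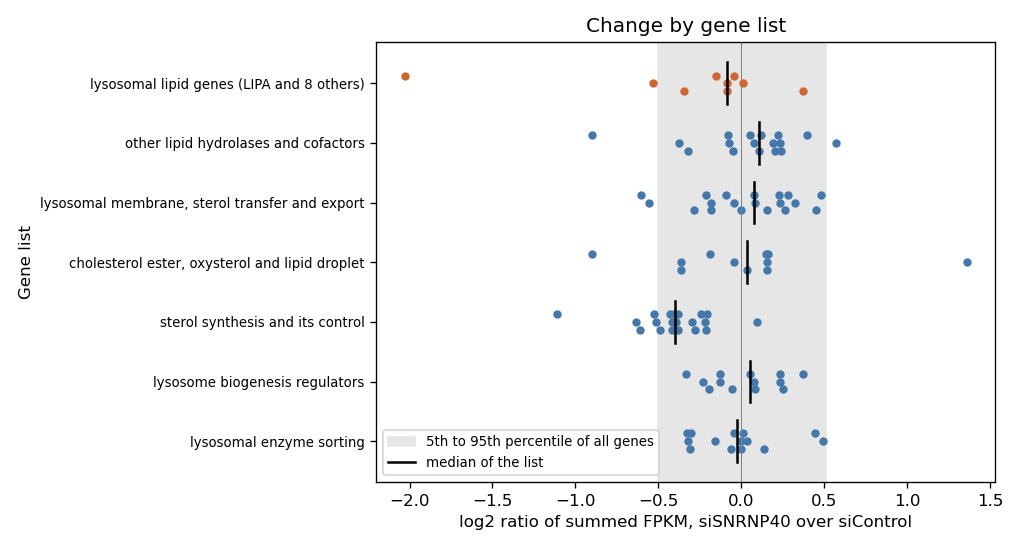
Log2 ratio of siSNRNP40 over siControl for each gene with a mean of at least 1 FPKM, in orange for LIPA and the 8 genes beside it and in blue for 6 other lists, with the vertical place of points within a list for clarity only, a black bar at each list's median and grey from the 5th to the 95th percentile of all genes (-0.50 to 0.51). LIPA at -2.03 is the lowest point of any list, and the sterol synthesis list with a median of -0.40 is the one that lies nearly all below 0. Over all genes past the filter, 50.5% were above 0.

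Along the chromosome, the expressed neighbours of LIPA were mostly higher. Within 500 kb of LIPA the table lists 21 other genes, of which 10 passed the filter, 8 higher and 2 lower, with a median log2 ratio of 0.48. Over all genes past the filter, 50.5% were above 0. CH25H, whose locus lies at -6.26 kb from that of LIPA (negative towards lower coordinates), was higher (1.36), and so were IFIT2, IFIT3 and IFIT1, antiviral genes induced by interferon that lie on the other side. IFIT3 had 123.6 FPKM in siControl and 206.7 FPKM in siSNRNP40 (0.74), IFIT1 had 93.1 FPKM and 152.5 FPKM (0.71), and IFIT2 had 34.8 FPKM and 47.8 FPKM (0.46). IFIT5, the fourth of that cluster, was at 0.09. Farther out, FAS, a death receptor, was at 0.90, PANK1, a pantothenate kinase, at 0.50 and ACTA2 at 0.20, where FAS and ACTA2 share a locus in the table. The lower genes were STAMBPL1 (-0.31) and KIF20B (-0.29), at -290.1 kb and 450 kb from LIPA. Of the 8 higher genes, CH25H passed the filter through its siSNRNP40 value alone. Nothing is read from the count, because the IFIT genes form a cluster and FAS and ACTA2 share a locus.

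**Figure D5:**
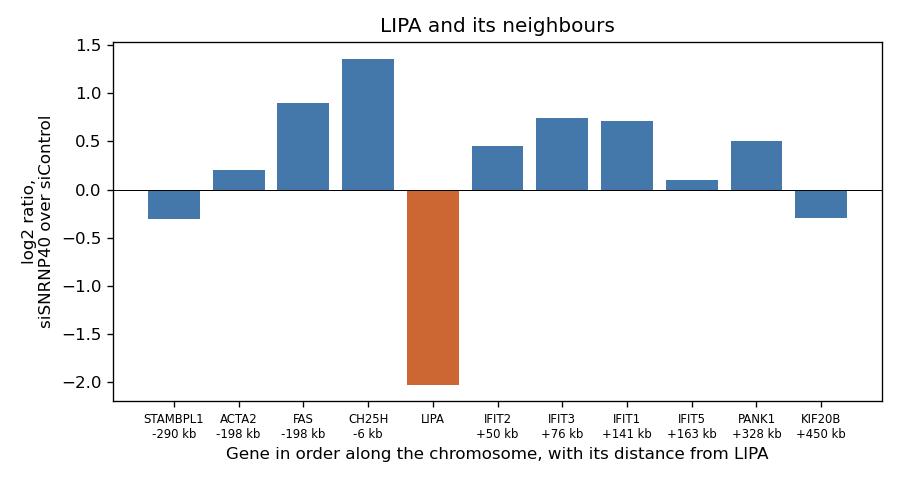
Log2 ratio of siSNRNP40 over siControl, as bars from 0, for LIPA in orange and the 10 genes within 500 kb with a mean of at least 1 FPKM in blue, in order along the chromosome with the distance of each locus from LIPA in kb. LIPA at -2.03 is the lowest bar, and 8 of the 10 other bars are above 0, CH25H (1.36) among them through its siSNRNP40 value. Over all genes past the filter, 50.5% were above 0.

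The 5 genes with a mean of at least 5 FPKM whose log2 ratio over these 2 conditions was nearest to that of LIPA were all less low than LIPA. LIPA was chosen for its fall and only SNRNP40 was lower at that level, so nothing is read from this direction. NNMT, nicotinamide N-methyltransferase, had 26.7 FPKM in siControl and 8.77 FPKM in siSNRNP40 (-1.60), and ENPP1, a nucleotide pyrophosphatase of the cell surface, had 49.0 FPKM and 18.9 FPKM (-1.37). The other 3 were the small RNA genes SNORD6 (-1.65), MIR5047 (-1.42) and SNORD102 (-1.40), whose FPKM is uncertain because a short length divides few fragments. The nearest of the 5, SNORD6, was 0.38 from LIPA on the log2 scale.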

How the data were processed

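RNA of 4 libraries, 2 per group, was measured by sequencing after depletion of ribosomal RNA (Ribo-Zero Gold, ScriptSeq v2, HiSeq 2500). Per the labels and the study's methods, the authors trimmed reads with cutadapt 1.2.1, aligned them to hg19 with TopHat2 2.0.8, assembled transcripts with Cufflinks and estimated transcript levels by Cuffdiff 2.0.2. FPKM was deposited by the authors as 1 value per transcript and condition, and each value pools the 2 libraries of a group. The columns of fold changes, test statistics, p-values and q-values in the same table hold the authors' comparison and were not used.

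FPKM was summed over the transcripts of each gene symbol. Log2 ratios used no pseudocount, and genes needed a mean summed FPKM of at least 1 and a value above 0 in both conditions. Tests, errors and intervals need values per library or counts and were not made. Members and lists were chosen with earlier results of these data known. Named are the 9 genes with every transcript, SNRNP40, in each list the genes past an absolute log2 ratio of 1 and the 3 largest rises and falls among genes past the filter, expressed genes within 500 kb of LIPA, and the 5 genes nearest LIPA. A few genes that this rule would name are not reported here. LAMP1, LAMP2, TFEB, TFE3, the other acid lipases and marker genes fall outside this rule and were taken for their role after their values were seen. siRNA sites were searched in canonical transcripts of GENCODE release 44 on GRCh37, whose coordinates are those of hg19. The steps were tested on simulated data and run with Python 3.11.15, numpy 2.4.6, pandas 2.3.3 and matplotlib 3.10.9. Alternatives changed the filter, the pseudocount, the limit, the scaling and the summing of transcripts.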

Additional observations from a re-analysis of the deposited data

How the results depend on the processing

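LIPA had a log2 ratio of -1.87 with a pseudocount of 1 FPKM and stayed within 0.1 of -2.03 under the other 5 alternatives. LIPA was the gene past the limit, 1 of 9, under all 8 alternatives for that count, and the median of the other 8 genes stayed within 0.1. Of 32 values for these 8 genes, 31 stayed within 0.1, and ASAH1 went to -0.36 when its most expressed transcript stood for the gene. The counts over all genes moved most. Genes lower by more than 1 on the log2 scale, 81 as reported, numbered 834 with no filter, 385 at a mean of at least 0.1 FPKM, 24 at a mean of at least 5, 401 with a limit of 1.5-fold, 30 with a pseudocount of 1 and 184 with the most expressed transcript. Genes higher, 100 as reported, numbered 1036, 472, 25, 465, 44 and 270 under the same alternatives. Fewer or more genes enter by the construction of each filter and limit. Scaling to equal medians or upper quartiles rests on offsets of 0.0034 and -0.0305 and kept these counts within 1.5 times. No paired analysis was possible because the table holds 1 pooled value per condition, and for the same reason leaving out a replicate was not run. Depth is unknown, so a value listed at 0 has no upper limit.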

Other observations

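The genes that bring enzymes to the lysosome were mixed. M6PR, the cation-dependent mannose 6-phosphate receptor that sorts new hydrolases, had 53.1 FPKM in siControl and 74.6 FPKM in siSNRNP40, a log2 ratio of 0.49. GNPTG, a subunit of the enzyme that makes the mannose 6-phosphate tag, had 11.8 FPKM and 16.1 FPKM (0.45), and NAGPA, which uncovers the tag, was at 0.13. On the other side, MCFD2 (-0.33) and LMAN1 (-0.31), partners in the export of glycoproteins from the endoplasmic reticulum, were lower, as was SORT1, a sorting receptor (-0.32). All 14 genes of this list passed the filter, 9 were below 0 and 5 above, the median was -0.02, and none was past an absolute log2 ratio of 1.

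Regulators of lysosome formation lay on both sides of 0. TFEB, TFE3 and MITF, the transcription factors that switch on lysosomal genes, had log2 ratios of -0.13, 0.08 and 0.25. Of the 13 genes past the filter, 6 were below 0 and 7 above, with a median of 0.05, from RRAGC (-0.33), ZKSCAN3 (-0.23) and RRAGD (-0.20) to FNIP2 (0.37), MITF and FLCN (0.24).

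Markers of leukocytes and macrophages, cells rich in LIPA, were mixed in level. PTPRC and MARCO were listed at 0 in both conditions, and CD14 and ITGAM were under 0.5 FPKM. Of the 7 markers, 3 passed the filter, CSF1R, which passed through its siControl value, with 1.98 FPKM in siControl and 0.907 FPKM in siSNRNP40 (-1.13), LYZ with 8.46 FPKM and 10.2 FPKM (0.28), and CD68, a lysosomal protein not limited to macrophages, with 40.9 FPKM and 44.4 FPKM (0.12).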
